A study of Rattus norvegicus with 9 samples.

Results

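In rat knee cartilage, 10 genes that direct cartilage cells were followed, namely the transcription factors Sox9, Sox5, Sox6, Runx3 and Foxa2 and the signaling genes Ihh, Ptch1, Gli1, Pth1r and Fgfr3. They were chosen by name as the transcription factors of the chondrocyte and the core of its hedgehog signaling, and were found as 10 of the 32043 genes of the expression table. RNA sequencing had been performed on 9 libraries of knee cartilage from male Sprague-Dawley rats aged 8 weeks at the start, with 3 libraries in each of 3 groups. In the control group the joint capsule had only been opened and sutured. In the model group knee osteoarthritis (KOA) had been induced by the modified Hulth method, in which the medial collateral and anterior cruciate ligaments are cut and the medial meniscus is removed, followed by forced activity. In the SYD group the same surgery was followed by gavage of an extract of Shengyu decoction (SYD), an herbal formula, for 4 weeks, at the highest of the doses tested per the study's account of its sequencing results. All rats therefore had an opened joint, and their tissue was taken 8 weeks after the operation. The columns of the SYD libraries are headed CXTB in the table, a name that the labels give beside the SYD titles without saying what it stands for. The study also had a group given celecoxib, and the name alone does not tell which arm it refers to, so that the SYD group, and with it every SYD value, rests on the titles of the libraries. Whether each library came from a separate rat is not given in the labels, so p-values measure the spread between these libraries.

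Chondrocytes are the cells of cartilage, and Sox9 together with Sox5 and Sox6 switches on their matrix genes, among them Col2a1, the gene of type II collagen. Indian hedgehog (Ihh) is secreted by chondrocytes that are about to enlarge, and binds the receptor Ptch1. Binding frees Smo, a membrane protein that Ptch1 holds in check, and the Gli transcription factors then switch on targets that include Gli1 and Ptch1 themselves, so both serve as readouts of the pathway. Ihh also induces parathyroid hormone-related protein, which acts through Pth1r to delay enlargement (hypertrophy), whereas Runx3 and Foxa2 promote it, and Fgfr3 restrains the proliferation of chondrocytes.

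Promoters were read where RefSeq's table of the GRCr8 build held them, which was the case for 6 of the 10 genes. The promoters of Ptch1 and Sox6 are shown because Ptch1 is a target of the Gli factors and Sox6 was the gene called lower in both operated groups. Each runs from 250 bases before to 50 bases after the start of the gene. Capitals mark the letters of a GLI motif (GACCACCCA, here as its reverse complement) in Ptch1 and of a SOX motif (ACAAAG, here as its reverse complement) in Sox6.
Ptch1, chr17:1555321-1555620, plus strand: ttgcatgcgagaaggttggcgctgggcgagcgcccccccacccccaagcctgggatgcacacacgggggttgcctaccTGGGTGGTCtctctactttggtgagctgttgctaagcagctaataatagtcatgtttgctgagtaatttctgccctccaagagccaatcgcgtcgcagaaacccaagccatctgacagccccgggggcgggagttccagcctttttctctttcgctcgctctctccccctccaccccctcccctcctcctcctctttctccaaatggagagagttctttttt
Sox6, chr1:179665322-179665621, minus strand: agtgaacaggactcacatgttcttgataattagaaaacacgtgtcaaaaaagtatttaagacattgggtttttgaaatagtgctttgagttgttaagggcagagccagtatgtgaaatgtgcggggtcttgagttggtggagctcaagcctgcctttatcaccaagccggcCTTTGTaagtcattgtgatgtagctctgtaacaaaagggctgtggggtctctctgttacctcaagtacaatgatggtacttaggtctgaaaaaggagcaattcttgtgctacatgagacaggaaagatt
The GLI letters began 172 bases before the start of Ptch1 and, on either strand, stood in 0.385% of 33469 promoters of the same length. The SOX letters of Sox6 stood in 18.8% of them. In the upstream promoter of Runx3 the RUNX letters (TGTGGT, in 17.3% of promoters) were found in the reverse direction at 135 and 127 bases before the start. The letters of a FOXA motif (TGTTTAC, in 3.78% of promoters) were found in none of the 6 genes, and Foxa2, Pth1r and Fgfr3 held none of the 4 motifs. A match describes letters and is not a binding site.

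The libraries differed in ways that touch every value below. They held 14914121 to 19510537 reads on genes, but mitochondrial genes took 4.05% to 4.86% of these in control, 39.5% to 90.7% in model and 23.7% to 72.7% in SYD libraries. Outside mitochondrial genes, 14306782 to 17373645 reads remained in control, 1744769 to 11106680 in model and 5153851 to 12745818 in SYD libraries, with model libraries 1 and 3 and SYD library 3 the shallowest. The labelled tissue was checked with 14 chondrocyte matrix genes. Their summed FPKM (fragments per kilobase of a gene, scaled to the depth of the library) was 506, 6239 and 12167 in the control libraries from lowest to highest, 177 to 938 in the model and 175 to 1595 in the SYD libraries. Control library 2, the lowest, thus lay within the range of the operated groups, and Matn1, one of the 14, was listed at 0 in all 6 operated libraries. Erythroid genes (7 measured) summed to 1466 to 3720 in control, 52.6 to 7586 in model and 237 to 2278 in SYD libraries, and 10 marrow leukocyte genes to 1925 to 3138, 95.6 to 4235 and 377 to 1899. Such sums rest mostly on the most abundant genes. Gene by gene, every model library lay below every control library for 7 of the 10 marrow leukocyte and 0 of the 7 erythroid genes, beside 20% of all genes tested. Every SYD library did so for 8 and 5 of them, beside 22.2%. Osteoblast genes (6 measured) summed to 3904 to 7782, 1618 to 10071 and 9802 to 12343, and 1 model library lay within the range of the SYD libraries. The part of these other tissues in the results was not tested, and in bulk tissue fewer cells of a type and less RNA per cell cannot be told apart.

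All 10 genes passed the filter of a mean FPKM of at least 0.5 over the 9 libraries. Sox5 and Foxa2, listed at 0 in all 3 model libraries, passed it through the control and SYD groups. A gene was called, by the study's criteria, when its unadjusted limma p was under 0.05 and its log2 fold change exceeded 1 in size, on the log2(FPKM + 1) scale. Adjusted p-values are those of limma with the Benjamini-Hochberg method over the 13898 genes tested. In model against control, 2 of the 10 genes (Ihh and Sox6) were called lower and 0 higher, against 11.2% and 3.55% of all genes tested. All model libraries lay below all control libraries for 3 of the 10 (Sox5, Sox6 and Foxa2) and above for 0, against 20% and 8.65% of all genes. The estimate was below 0 for 9 of the 10, with a median log2 fold change of -0.70 against -0.23 over all genes. By limma, and by voom on the recovered reads, 0 of the 10 passed an adjusted p of 0.05, as 2.59% of all genes did by limma, and 3 had an unadjusted p under 0.05.

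In SYD against model, 2 genes (Gli1 and Sox5) were called higher and 0 lower, against 3.62% and 0.532% of all genes. SYD libraries lay above all model libraries for 3 genes (Sox5, Pth1r and Gli1) and below for 0, against 7.89% and 3.17% of all genes. The estimate was above 0 for 7 of the 10, with a median of 0.77 against 0.22 over all genes. By limma 0% of all genes passed the adjusted threshold here (731 had an unadjusted p under 0.05), and voom on the recovered reads gave 0 as well (1113 unadjusted). In SYD against control, 1 gene (Sox6) was called lower and 0 higher, against 9.22% and 7.25% of all genes, and it also passed the adjusted threshold, as 17.3% of all genes did. All SYD libraries lay below all control libraries for Sox6, and above them for 0 of the 10, against 22.2% and 20.3% of all genes. The comparisons share libraries, so they are not independent of one another.

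**Figure D1:**
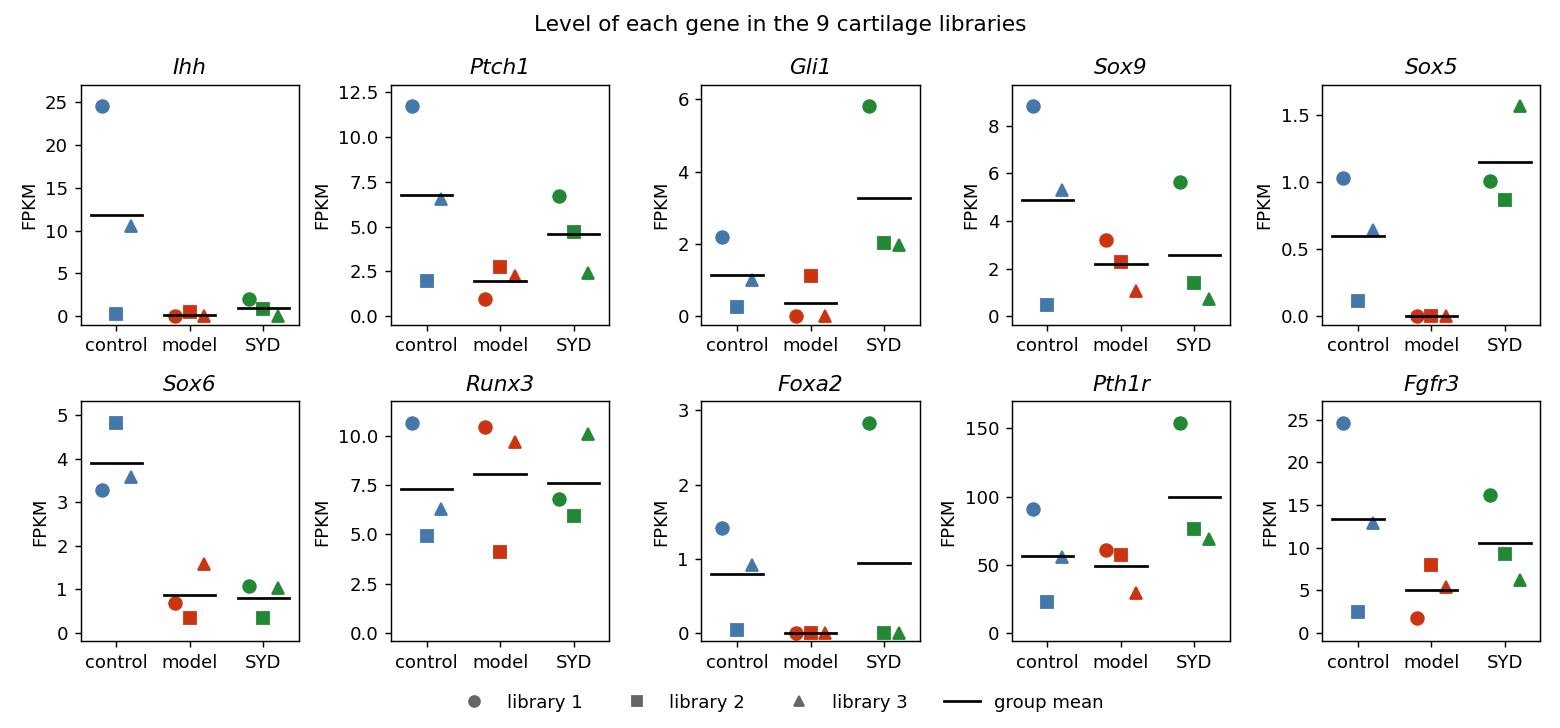
FPKM of each gene (vertical axis, its own scale per panel) in the control, model and SYD libraries, with symbols for library 1, 2 and 3 and a line at the group mean of 3 libraries. Sox6 sits at 3.28 to 4.84 in control and at 1.58 or below in every operated library, while in the control group library 2 is the lowest for the other 9 genes.

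In the control group, 9 of the 10 genes were ordered library 1 above 3 above 2, all but Sox6, and 25.4% of all tested genes had that order, including 14 of 14 chondrocyte matrix genes. Library 1 exceeded library 2 by 78.9-fold for Ihh, 38.4-fold for Foxa2, 17.9-fold for Sox9, 9.89-fold for Fgfr3, 8.95-fold for Sox5, 8.31-fold for Gli1, 5.98-fold for Ptch1, 4.03-fold for Pth1r and 2.17-fold for Runx3, beside 23.9-fold for Col2a1. Among these 9 genes the span was thus widest for Ihh and Foxa2 and narrowest for Runx3. Sox6 went the other way, at 0.679 of library 2 in library 1. The order 1 above 3 above 2 was also that of 5 of 6 osteoblast, 5 of 6 endothelial, 5 of 6 hypertrophic chondrocyte and 3 of 6 synovial fibroblast genes, and of 0 of 10 marrow leukocyte, 7 erythroid, 10 cytotoxic lymphocyte and 6 skeletal muscle genes.

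The ligand Ihh (ENSRNOG00000018059, chr9:76504315-76510532, minus strand, in the table's coordinates, whose build is not given in the sources used here, as for all genes below) had FPKM of 24.5, 0.311 and 10.6 in control libraries 1, 2 and 3. It was 0, 0.533 and 0 in the model and 2.02, 0.837 and 0 in the SYD libraries. Control library 2 lay within the operated range, and the other control libraries were far above all operated ones. Group means were 11.8 ± 12.2 (SD, n = 3) in control, 0.178 ± 0.308 in model and 0.953 ± 1.02 in SYD. Ihh was called lower in model than in control (log2 fold change -2.66, SE 1.08, limma p = 0.048, adjusted p = 0.256; exact permutation p = 0.2). That call was lost without control library 1 or 3 and without any 1 model library. Voom, quantile normalization, a replicate block and scaling to the chondrocyte matrix genes also lost it, and without control library 2 the fold change was -3.90. Against control the SYD group differed by -2.04 (SE 1.13, adjusted p = 0.257; exact permutation p = 0.3) with control library 2 and by -3.28 without it, where it was called. In model library 1 the listed 0 allows up to 0.363 FPKM (3 reads), above the value of control library 2, so that pair could not be separated at this depth.

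The receptor Ptch1 (ENSRNOG00000019354, chr17:1542877-1607333, plus strand) had FPKM of 11.7, 1.96 and 6.54 in control, 0.968, 2.72 and 2.23 in model, and 6.70, 4.69 and 2.41 in SYD libraries. Means were 6.74 ± 4.88, 1.97 ± 0.905 and 4.60 ± 2.15 (SD, n = 3). Model and control overlapped through control library 2 alone, and SYD library 3 reached into the model range. On the deposited scale with all libraries, Ptch1 was not called in model against control (log2 fold change -1.19, SE 0.62, adjusted p = 0.362; exact permutation p = 0.3) or in SYD against model (0.89, SE 0.51; exact permutation p = 0.2). In model against control it was called without control library 2 (-1.77) and with TPM, where all 10 genes were. SYD against control gave -0.31.

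Gli1 (ENSRNOG00000025120, chr7:63156926-63169251, minus strand), the effector and target of the pathway, had FPKM of 2.18, 0.263 and 1.02 in control libraries, on 244, 36 and 149 reads. It was 0, 1.12 and 0 in model libraries, with 110 reads in library 2, and 5.82, 2.03 and 1.96 in SYD libraries, on 575, 214 and 84 reads. All SYD libraries lay above all model libraries, and a 0 in the model allowed at most 0.222 FPKM. Means were 1.15 ± 0.968 in control, 0.373 ± 0.646 in model and 3.27 ± 2.21 in SYD (SD, n = 3). Gli1 was called higher in SYD than in model (log2 fold change 1.62, SE 0.54, limma p = 0.0222, adjusted p = 0.723; exact permutation p = 0.1, the smallest 3 libraries against 3 can give). Without model library 1 or 3 the estimate was 1.44 and the call was lost. Against control, SYD differed by 0.97 (SE 0.48, adjusted p = 0.209; exact permutation p = 0.3) and overlapped through control library 1, without which it was 1.30 and called.

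Gli1 was also set against Ptch1 within the same library, which cancels the scaling. The ratio of Gli1 to Ptch1 was 0.187, 0.134 and 0.155 in control libraries, although both genes differed several-fold between them. In SYD libraries it was 0.868, 0.432 and 0.815, each above every control library. The means were 0.705 ± 0.238 and 0.159 ± 0.0264 (SD, n = 3), 4.44-fold apart (exact permutation p = 0.1), and 9.36% of all tested genes, set over Ptch1 in the same way, had every SYD library above every control library. Model library 2 gave 0.411, near SYD library 2, and the 0 of model libraries 1 and 3 allowed up to 0.229 and 0.0544. The ratio of Ptch1 to Smo was lower in all model libraries (0.268, 0.630 and 0.523) than in all control libraries (1.44, 1.13 and 0.959), with means of 0.473 ± 0.186 and 1.18 ± 0.245 (exact permutation p = 0.1), and 8.23% of all genes over Smo did the same. SYD libraries spanned 1.08, 0.767 and 0.382 and overlapped both groups. Ihh relative to Ptch1 was 2.09 and 1.62 in control libraries 1 and 3 but 0.159 in control library 2, close to the 0.196 of model library 2 and the 0.302 and 0.179 of SYD libraries 1 and 2. These ratios were chosen after the values were seen.

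**Figure D2:**
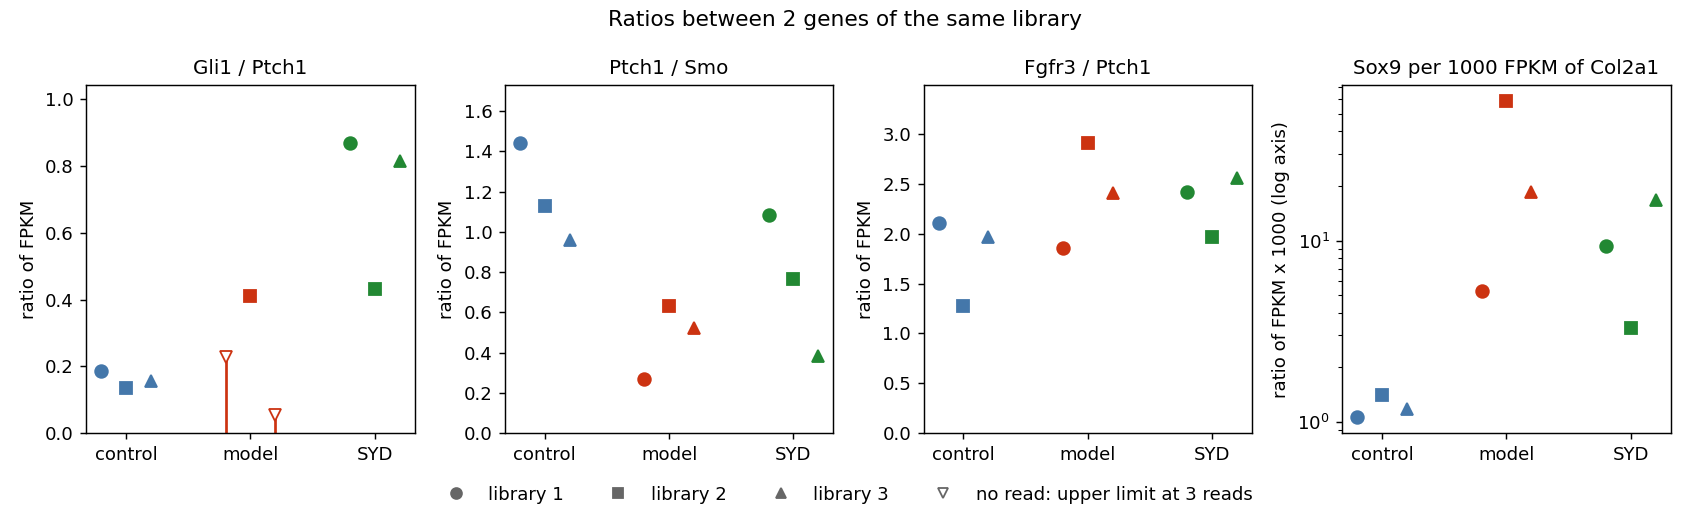
Ratios of FPKM between 2 genes of the same library (vertical axes, linear but for the last, which is logarithmic) for the 3 libraries of each group, with open triangles for the upper limit at 3 reads where the numerator had no read. Gli1 over Ptch1 is 0.432 or more in SYD libraries and 0.187 or less in control libraries, and Sox9 per 1000 of Col2a1 stays near 1 in the control libraries only.

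Of 21 other hedgehog pathway genes, 20 were in the table and 13 were tested, while the ligand Shh was listed at 0 in all 9 libraries. In model against control 1 was called, Spop, which encodes an adaptor that marks Gli proteins for degradation, higher by 1.11 (15.1 ± 0.559 FPKM in control, 35.9 ± 16.0 in model), and the median over the 13 was -0.20. The single call stands against 3.55% of all genes, and the median against -0.23. The list's calls moved with the scaling. With quantile normalization 4 were called higher and 0 lower (median 0.29, against 0.04 over all genes), beside 944 and 1094 of the 13898 genes tested. With TPM 0 were called higher and 6 lower (-1.97, against -2.60), beside 0.273% and 74.9% of all genes. With voom 2 of each were called, beside 801 and 2474 genes. In SYD against model, Kif7, a ciliary kinesin that regulates Gli proteins, and Disp1, which releases the ligand from cells, were called higher by 1.65 and 1.27, and 0 were called lower, with a median of 0.48 against 0.22 over all genes. Over all genes 3.62% were called higher. Of the 13, 1 was called with quantile normalization and 0 with TPM, beside 540 and 529 of the 13898 genes tested. Kif7 was listed at 0 in model libraries 1 and 3 and at 2.36 in library 2, beside 3.89, 3.32 and 3.90 in SYD libraries. Kif7, Disp1 and Gli3, the last named after its values were seen, were at 0 in both model libraries 1 and 3, which makes 3 of the 13, against 16.2% of all genes tested. In SYD against control, Evc2, a ciliary protein that relays Smo signals, was called higher (0.439 ± 0.152 FPKM in control, 2.49 ± 0.989 in SYD, log2 fold change 1.25, adjusted p = 0.0231), and 3 of the 13 (23.1%) passed the adjusted threshold, against 17.3% of all genes. Smo was steady across SYD libraries at 6.18, 6.11 and 6.30 FPKM, and Boc, a co-receptor for the ligand, averaged 4.61 ± 3.21 in control, 4.81 ± 4.54 in model and 6.78 ± 1.17 in SYD.

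Sox9 (ENSRNOG00000002607, chr10:97806485-97811994, plus strand), the factor that sets the chondrocyte's identity, had FPKM of 8.82, 0.492 and 5.29 in control, 3.20, 2.30 and 1.04 in model, and 5.65, 1.41 and 0.710 in SYD libraries. Its groups overlapped in all 3 comparisons, and control library 2 was the lowest of all 9. Means were 4.87 ± 4.18, 2.18 ± 1.08 and 2.59 ± 2.67 (SD, n = 3), and the log2 fold changes were -0.57 (SE 0.77) in model against control and -0.02 in SYD against model. Model libraries 1 and 3 rested on 47 and 28 reads and SYD library 3 on 33. Relative to its target Col2a1, a ratio chosen after the values had been seen, Sox9 was uneven between groups. Col2a1 averaged 4379.7 ± 3988 FPKM in control, 234 ± 322 in model and 360.5 ± 289.5 in SYD libraries (SD, n = 3). Sox9 per 1000 FPKM of Col2a1 was 1.06, 1.41 and 1.18 in control libraries, a narrow range while Col2a1 itself differed 23.9-fold, against 5.29, 58.9 and 18.6 in model and 9.28, 3.29 and 16.8 in SYD libraries. The operated libraries all lay above the control libraries, as 13.3% of all genes over Col2a1 did in model and 22.7% in SYD (exact permutation p = 0.1 for each). The difference of means from control was 26.4 in model, 10.7 without model library 2, and 8.56 in SYD, or 5.06 without SYD library 3.

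Sox5 (ENSRNOG00000027869, chr4:176785892-177736852, minus strand), which works with Sox6 as a partner of Sox9, had FPKM of 1.03, 0.115 and 0.646 in control and 1.01, 0.867 and 1.57 in SYD libraries. No read was recovered in any model library, where 3 reads would be 0.175, 0.024 and 0.096 FPKM. All SYD libraries, on 126, 116 and 85 reads, exceeded those floors, whereas control library 2, on 20 reads, lay below that of model library 1. The SYD mean of 1.15 ± 0.370 (SD, n = 3) was at least 11.7-fold higher than the model at a floor of 3 reads per library, and the control mean of 0.598 ± 0.460 at least 6.08-fold. Sox5 was called higher in SYD than in model (log2 fold change 1.09, SE 0.25, limma p = 0.0039, adjusted p = 0.723; exact permutation p = 0.1), and without SYD library 3 the fold change was 0.95 and fell short of the criterion, as it did with quantile normalization (0.41). Against control the model differed by -0.63 (SE 0.24, limma p = 0.0376, adjusted p = 0.226; exact permutation p = 0.1), which the fold change criterion did not pass.

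Sox6 (ENSRNOG00000020514, chr1:169729194-170277386, minus strand) was the only one of the 10 genes whose adjusted p passed the threshold on the deposited scale, in SYD against control. Its FPKM was 3.28, 4.84 and 3.58 in control, on 319, 576 and 457 reads, 0.680, 0.339 and 1.58 in model, on 8, 29 and 34 reads, and 1.07, 0.337 and 1.02 in SYD libraries, on 92, 31 and 38 reads. No operated library reached the lowest control library. Means were 3.90 ± 0.824, 0.866 ± 0.641 and 0.809 ± 0.409 (SD, n = 3). Sox6 was called lower in model than in control (log2 fold change -1.43, SE 0.40, limma p = 0.0103, adjusted p = 0.122) and in SYD than in control (-1.45, SE 0.25, limma p = 0.0012, adjusted p = 0.0184; exact permutation p = 0.1 for each). Leaving out any 1 library kept both calls, at -1.70 to -1.22 and -1.56 to -1.25, whereas quantile normalization ended the call in the model, though its sign was kept. The adjusted p in SYD against control no longer passed without control library 1, 2 or 3 (0.0563, 0.0692 and 0.0839), without the filter on low values (0.0547), with all 9 libraries in one fit (0.0939) or with a replicate block (0.0858). Model and SYD differed by -0.02. Unlike the other genes Sox6 was, among the controls, highest in library 2, the control library poorest in chondrocyte matrix RNA. That library also had the highest control sums of erythroid and marrow leukocyte genes (3720 and 3138 FPKM). In model libraries 1 and 3 the erythroid sums were higher still (6537 and 7586), while Sox6 lay below every control library. The part of erythroid or marrow RNA in the level of Sox6 was not tested.

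**Figure D3:**
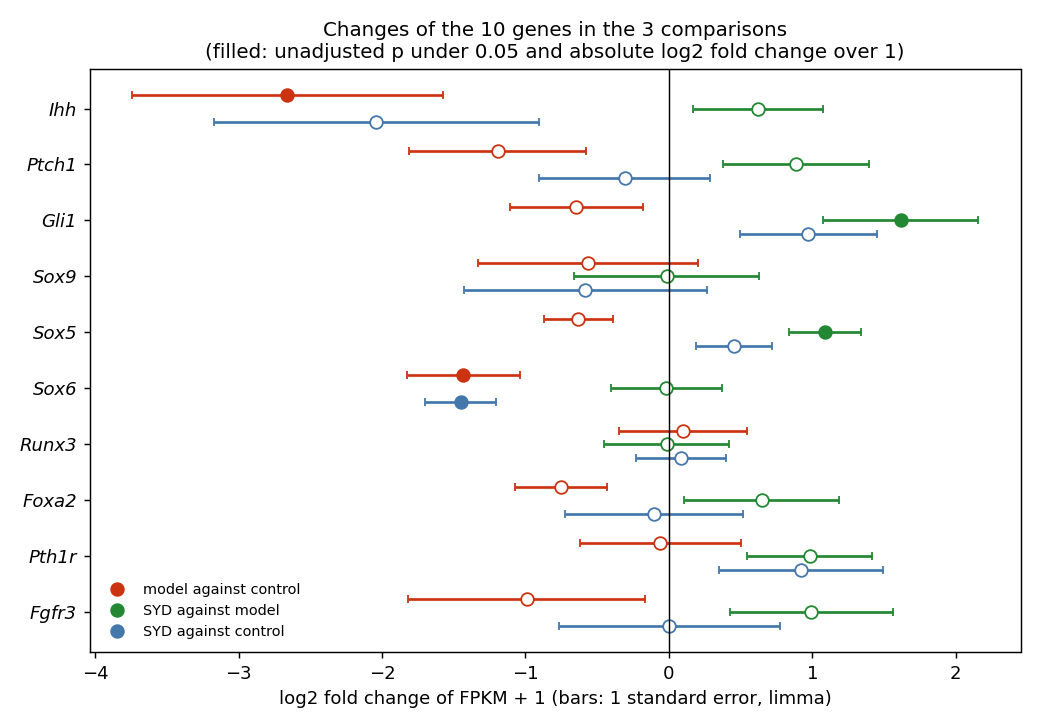
Log2 fold change of FPKM + 1 with 1 standard error (limma, 3 libraries against 3) for the 10 genes in the 3 comparisons, filled where the gene was called. Sox6 lies at -1.43 and -1.45 against control, and Gli1 and Sox5 lie at 1.62 and 1.09 in SYD against model.

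Runx3 (ENSRNOG00000054217, chr5:147360994-147419156, plus strand), which promotes hypertrophy with its relative Runx2 and is also made by lymphocytes, showed no difference between groups that exceeded the spread. Its FPKM was 10.7, 4.93 and 6.27 in control, 10.4, 4.08 and 9.67 in model, and 6.79, 5.92 and 10.1 in SYD libraries. The groups overlapped in full, and the log2 fold changes were 0.10 (SE 0.45), -0.02 and 0.08. Cytotoxic lymphocyte genes (10 measured) summed to 31.1 to 44.4 FPKM in control, 1.09 to 5.81 in model and 5.39 to 8.99 in SYD libraries. Most of the control sum was Nkg7, at 34.8 ± 7.31 FPKM in control and 1.47 ± 1.28 in SYD (SD, n = 3) and listed at 0 in all 3 model libraries. Cd8a went the other way, with means of 0.709 ± 0.199 in control, 1.30 ± 1.42 in model and 2.94 ± 1.72 in SYD, and was called higher in SYD than in control (1.10, adjusted p = 0.104). Cd2, an adhesion receptor of T and natural killer cells, averaged 1.34 ± 0.678, 1.94 ± 3.35 and 0.635 ± 0.854 and overlapped between all groups. By group mean 4 of the 10 genes were higher and 6 lower in SYD than in control. Every SYD library lay above every control library for 2 genes, Cd8a and Klrd1, a receptor of natural killer cells, and below for 3, Nkg7, the pore protein gene Prf1 and the transcription factor gene Eomes, beside 20.3% and 22.2% of all tested genes. Klrd1, Prf1 and Eomes, named after their values were seen, were too low to be tested, and for Eomes the 0 of SYD library 3 allowed up to 0.109 FPKM (3 reads), above 2 of the control libraries. Of the 10 genes 8 were at 0 in all 3 model libraries, several of them with control levels under the 3-read floor of model library 1. The part of lymphocytes in the level of Runx3 was not tested.

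Foxa2 (ENSRNOG00000013133, chr3:135470131-135474326, minus strand), a factor of hypertrophic chondrocytes, had FPKM of 1.41, 0.0368 and 0.916 in control libraries, on 94, 3 and 80 reads. It was listed at 0 in all 3 model libraries and in SYD libraries 2 and 3, while SYD library 1 had the highest value of all, 2.84 on 167 reads. The fold changes were -0.75 (SE 0.32, limma p = 0.0563; exact permutation p = 0.1) in model against control, -1.10 without control library 2, and 0.65 in SYD against model, which rested on SYD library 1 and was 0 without it. The 3 reads of control library 2 were below the floors of all 3 model libraries (0.372, 0.0512 and 0.204 FPKM), so the absence of overlap was not resolved there.

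Of 20 other transcription factors of the chondrocyte and osteoblast lineage, 18 were tested. In model against control, Epas1, a hypoxia-inducible factor, and Erg, an ETS factor of articular cartilage that endothelium also makes, were called higher by 1.25 and 1.41, and Foxa3, a relative of Foxa2, was called lower (-1.30). These were 2 and 1 of 18, beside 3.55% of all genes called higher and 11.2% called lower, and the median over the list was -0.15 against -0.23 over all genes. Without the filter on low values 1 gene of the list was called higher and 0 lower, beside 447 and 1439 of 32043 genes. With TPM 0 were called higher and 13 lower, beside 0.273% and 74.9% of all genes. Foxa3 had FPKM of 3.36, 0.297 and 1.63 in control libraries and was listed at 0 in all model libraries, as Foxa2 was. It passed the filter through its control level alone, and the value of control library 2 lay under the 0.501 FPKM that 3 reads stood for in model library 1. Endothelial genes (6 measured) summed to 29.4 to 39.0 FPKM in control, 19.8 to 200 in model and 79.8 to 111 in SYD libraries, and their part in the level of Erg was not tested. In SYD against model 0 of the 18 were called by limma and 0 by voom, beside 3.62% of all genes called higher and 0.532% called lower by limma, and 1 had an unadjusted p under 0.05, Cbfb, the partner that Runx factors need to bind DNA, at 29.2 ± 4.23 FPKM in model and 16.8 ± 1.21 in SYD (log2 fold change -0.75, adjusted p = 0.723). Control libraries had 17.1 ± 2.08, so Cbfb was highest in the model group while the groups of Runx3 overlapped. Hif1a, the other hypoxia-inducible factor of the list, had means of 16.4 ± 7.86 in control, 24.9 ± 16.2 in model and 23.6 ± 7.31 in SYD. In SYD against control, Runx2, the master factor of bone formation and hypertrophy, was called higher (5.11 ± 1.67 FPKM in control, 15.0 ± 2.65 in SYD, log2 fold change 1.41, adjusted p = 0.0212), as was Epas1 (14.6 ± 5.28 and 33.4 ± 4.90, 1.20, adjusted p = 0.0466), and Foxo3, a stress-responsive factor, was called lower (17.6 ± 3.74 and 5.61 ± 1.80, -1.52, adjusted p = 0.0202). Of all genes 7.25% were called higher and 9.22% lower in that comparison. With TPM 0 of the 18 were called higher and 8 lower, beside 0.921% and 42.5% of all genes. Runx2 thus differed between SYD and control while Runx3 lay at 7.29 ± 3.01 and 7.61 ± 2.21. The osteoblast genes given above also summed higher in every SYD than in every control library. Gene by gene, 2 of these 6 had every SYD library above every control library, beside 20.3% of all genes. By group mean 5 were higher and 1 lower in SYD. The hypertrophic chondrocyte genes (6 measured) also summed higher in every SYD library, at 500.3 to 1791 FPKM in control, 595 to 3140 in model and 2564 to 4736 in SYD libraries. By group mean 4 of them were higher and 2 lower in SYD than in control. Of these, Spp1, the gene of osteopontin, was called higher in SYD than in control (2.53, adjusted p = 0.0186), as was the collagenase gene Mmp13 (2.21, adjusted p = 0.0348), both of which bone cells also make, while Col10a1, the collagen gene that defines the hypertrophic chondrocyte, was called lower (-3.64, adjusted p = 0.118) with overlap. The part of either list in the level of Runx2 was not tested.

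Pth1r (ENSRNOG00000020948, chr8:110697485-110719729, minus strand), the receptor for parathyroid hormone and its related protein in chondrocytes and osteoblasts, had the highest level of the 10 genes in every library. Its FPKM was 90.9, 22.5 and 56.0 in control, 61.1, 57.0 and 29.3 in model, and 154, 76.3 and 69.1 in SYD libraries. All SYD libraries lay above all model libraries, by a log2 fold change of 0.98 (SE 0.44, limma p = 0.0623, adjusted p = 0.723; exact permutation p = 0.1), which did not meet the criteria. Means were 56.5 ± 34.2, 49.1 ± 17.3 and 99.9 ± 47.3 (SD, n = 3). Model against control gave -0.06 (SE 0.56) and SYD against control 0.92 with overlap.

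Fgfr3 (ENSRNOG00000016818, chr14:76987993-77003341, minus strand) had FPKM of 24.6, 2.49 and 12.9 in control, 1.79, 7.92 and 5.36 in model, and 16.2, 9.21 and 6.15 in SYD libraries. Means were 13.3 ± 11.1, 5.02 ± 3.08 and 10.5 ± 5.14 (SD, n = 3), and the groups overlapped in each comparison. The log2 fold changes were -0.99 (SE 0.83; exact permutation p = 0.4) in model against control, -1.80 and called without control library 2, and 0.99 (SE 0.57; exact permutation p = 0.2) in SYD against model. Fgfr3 and Ptch1 ranked the 9 libraries identically, and their ratio stayed between 1.27 and 2.91 in all of them.

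Of 10 partners of Pth1r and Fgfr3, Gnas stood on more than 1 entry of the table and was left out, and 5 of the other 9 were tested. Their median in model against control was -0.71, against -0.23 over all genes. Fgfrl1, an FGF receptor without a kinase, was called lower in model than in control (-2.02), with overlap (15.2, 2.74 and 9.89 FPKM against 3.21, 1.37 and 0), as 11.2% of all genes were. That call was lost with a pseudocount of 0.1, without the filter on low values and with voom. In SYD against model 0 were called by limma, and 0 had an unadjusted p under 0.05, with the same counts by voom, although all 5 estimates lay above 0 with a median of 1.18, against 0.22 over all genes, of which 3.62% were called higher. Fgfr2, the FGF receptor of bone-forming cells, and Npr2, the receptor of C-type natriuretic peptide that opposes Fgfr3 in growth plates, were called higher in SYD than in control by 1.05 and 1.31 (adjusted p = 0.131 and 0.0956), beside 7.25% of all genes. With all 9 libraries in one fit or with TPM 0 of the 5 were called higher, beside 722 and 128 of the 13898 genes tested. Fgfr1, the most abundant of the list, averaged 32.6 ± 15.1, 22.2 ± 18.7 and 45.0 ± 10.8 FPKM. The ligand Pthlh was low, with means of 0.362 ± 0.417 in control, 0.766 ± 1.33 in model and 1.26 ± 1.35 FPKM in SYD (SD, n = 3).

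By median FPKM, which is per length of the gene, the control order was Pth1r (56.0), Fgfr3 (12.9), Ihh (10.6), Ptch1 (6.54), Runx3 (6.27), Sox9 (5.29), Sox6 (3.58), Gli1 (1.02), Foxa2 (0.916) and Sox5 (0.646). The ranges of each neighbouring pair in that order overlapped over the 3 libraries except those of Sox6 and Gli1, which lay at 3.28 to 4.84 and 0.263 to 2.18. Compared within each control library, Pth1r was always above Fgfr3, Fgfr3 above Ihh, Runx3 above Sox9, Sox6 above Gli1 and Gli1 above Foxa2. The other neighbouring pairs changed places in control library 2. In the SYD group Pth1r (76.3) and Fgfr3 (9.21) again led, and Ihh (0.837) came just above Foxa2, the lowest. In the model group Ihh, Gli1, Sox5 and Foxa2 all had a median of 0.

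The genes most like 3 of the members over the 9 libraries, by Pearson's r of log2(FPKM + 1), were named by rule among the genes tested. For Ptch1 they were Plagl1 (r = 0.985, Spearman's rho = 0.967), Col11a1 (r = 0.969) and Car12 (r = 0.967). For Fgfr3 they included Plagl1 (r = 0.976) and Ptch1 (r = 0.961, rho = 1). For Sox9 they were Chad, a cartilage matrix protein (r = 0.927, rho = 0.9), Scin (r = 0.922) and Meltf (r = 0.883). Without the 2 libraries farthest from the median these values ranged from 0.809 to 0.976. Col11a1 and Chad are chondrocyte matrix genes, and the libraries share the spread in that RNA described above.

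**Figure D4:**
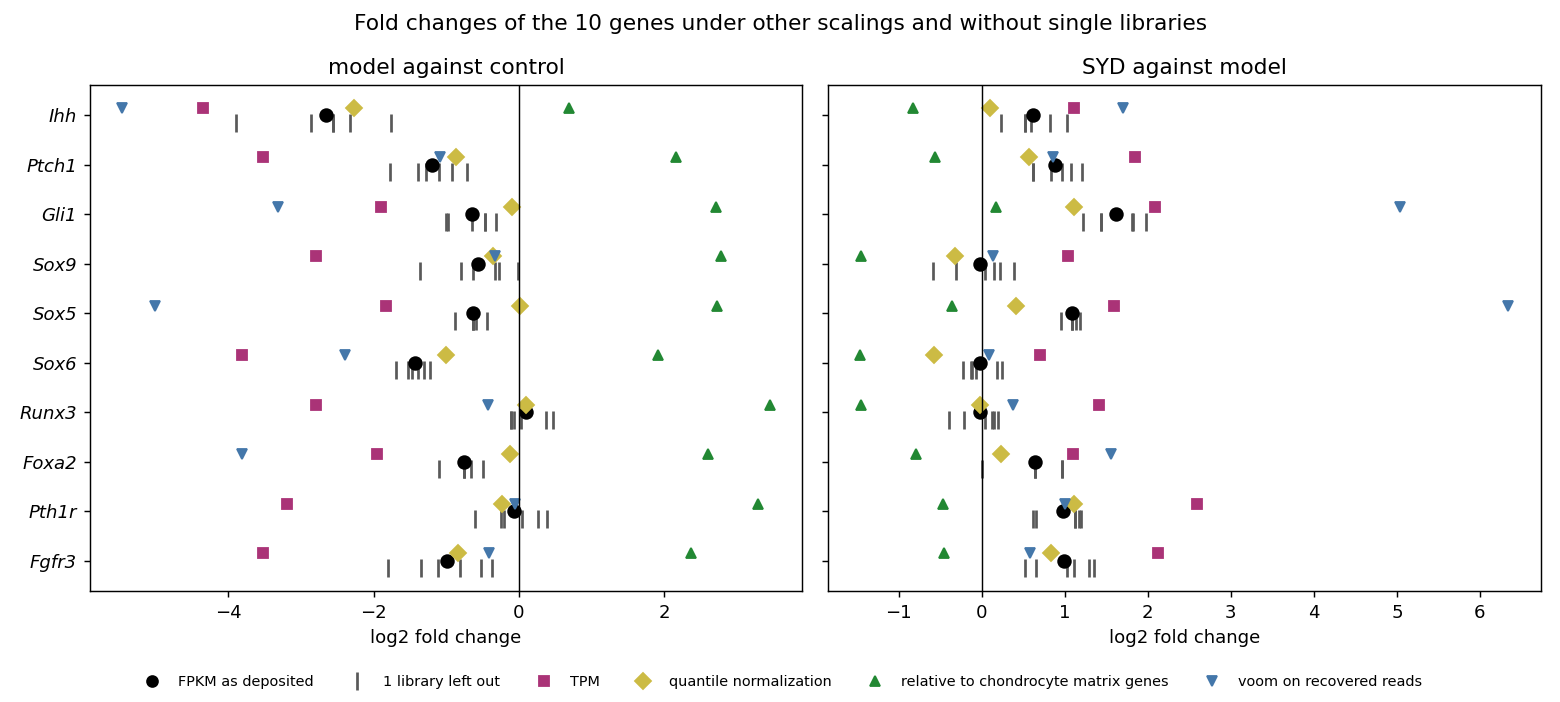
Log2 fold changes of the 10 genes in model against control and SYD against model, as deposited (black), with 1 library left out (bars) and under other scalings (coloured). In model against control, TPM moved all 10 genes down and scaling to chondrocyte matrix genes moved all 10 above 0, as these scalings moved the median of all genes to -2.60 and 3.13. In SYD against model only Gli1 stayed above 0 relative to the chondrocyte matrix genes, at 0.17, where the median of all genes was -1.22.

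The direction of several genes depended on what they were measured against. Setting values relative to the mean of the chondrocyte matrix genes, which were far lower in the model, moved all genes alike. The median of all genes in model against control went from -0.23 to 3.13 and that of the 10 genes from -0.70 to 2.66, and 9 of the 10 estimates were above 0 in place of below, so that these reversals follow from the shift. All but Runx3 (3.46) and Pth1r (3.30) lay below the shifted median of all genes, as on the deposited scale, with Ihh lowest at 0.70. TPM, a unit in which every library has the same total and the mitochondrial genes are part of it, moved the median of all genes from -0.23 to -2.60, and all 10 genes were then called lower, as were 74.9% of all genes. By the adjusted p, all 10 passed under TPM beside 69.6% of all genes. Gli1 in SYD against model was above 0 under every scaling tried, although its call was not kept under TPM, quantile normalization or scaling to the chondrocyte matrix genes. Sox6 against control was below 0 under every scaling except that to the chondrocyte matrix genes.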

How the data were processed

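RNA from 9 libraries labelled as rat knee cartilage was sequenced, 3 each of control, model and SYD. The values deposited by the authors are FPKM, in a single table that also gives identifiers, names, positions and lengths of the genes. Per the labels' processing notes HISAT2 2.0.5 was used. These notes name a human build, whereas the identifiers are those of the rat, and the rat build is not given in the sources used here. The extraction text of the labels speaks of retinas, whereas the tissue is labelled as cartilage. FPKM times gene length came in steps of a single read, and 100% of values gave whole reads (tolerance 0.1), from which depth, 3-read floors and voom were derived. Floors cover counting error only. The authors' FPKM total tracked the reads outside mitochondrial genes, so model library 1 rested on 1744769 such reads. The number of columns left out was 0.

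Groups were taken from the labels, whose titles name the SYD libraries as such while their library names, and the columns of the table, read CXTB. The deposited FPKM values were tested as log2(FPKM + 1) with limma 3.58.1 in R 4.3.3 (lmFit, eBayes with trend, two-sided), on the 6 libraries of each comparison and the 13898 genes whose FPKM averaged 0.5 or more over the 9 libraries. Exact permutation tests are two-sided. On simulated data with 200 changed genes among 13898, limma called 82.5% of these in model against control. It called 83.5% in SYD against model and 98.5% in SYD against control. Whether these shares hold for the fold changes and the spread of the real libraries was not tested. Named genes were the 10 members, the 3 most abundant and the called genes of the 3 pathway lists and the cytotoxic list, the called genes of the hypertrophic list in SYD against control, and the 3 genes most like Sox9, Ptch1 and Fgfr3, of which 1 is not reported here. Klrd1, Prf1, Eomes, Gli3, Pthlh and Shh were named outside that rule, after their values were seen. Marker lists of cell types are given as summed levels, and in model against control 10 of 14 chondrocyte, 7 of 10 marrow leukocyte and 0 of 6 hypertrophic chondrocyte, 7 erythroid and 6 synovial fibroblast genes were called lower, against 11.2% of all genes, and without the filter 5 of the 14 chondrocyte genes were. Synovial fibroblast genes (6 measured) summed to 38.2 to 76.3, 38.1 to 137 and 53.3 to 126 and skeletal muscle genes (6 measured) summed to 8.08 to 258.6, 17.9 to 472 and 19.2 to 786 FPKM in control, model and SYD. The members and lists were chosen with earlier results of these data known, and the ratios between genes after the values had been seen. Alternatives were another pseudocount and filter, TPM, quantile and other scalings, voom, a replicate block and each library left out. Promoters came from RefSeq's GRCr8 tables.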

Additional observations from a re-analysis of the deposited data

How the results depend on the processing

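The number of the 10 genes called in model against control, 2 as reported, was 4 with a pseudocount of 0.1, 1 without a filter, 10 with TPM, 4 relative to reads outside mitochondrial genes, 0 with quantile normalization, 0 relative to the chondrocyte matrix genes and 3 with voom, which lost Ihh and added Sox5 and Foxa2. Over all 13898 genes tested, 2046 were called as reported. In the same order of settings the counts were 2143, 1886 (of 32043 genes), 10445, 2216, 2038, 4340 and 3275. With 1 library left out, 1 to 5 of the 10 genes were called, the highest without control library 2, where 1309 of all genes were called. In SYD against model, where Sox5 and Gli1 were called as reported, 1 was called with a mean FPKM of at least 1 (Gli1), 1 with TPM (Sox5) and 0 relative to the chondrocyte matrix genes. Quantile normalization lost both Sox5 (0.41) and Gli1 (1.12) and called 1 other, Pth1r (1.11). Voom called 3, these 2 and Pth1r, and 1 to 2 were called with 1 library left out (without SYD library 3, Gli1 and Ihh, Sox5 being lost at 0.95). Over all genes 577 were called as reported, 529 with TPM, 208 relative to the chondrocyte matrix genes, 540 with quantile normalization and 1078 with voom. In SYD against control the 1 call became 2 with TPM, 0 relative to the chondrocyte matrix genes, 2 with voom, and 1 to 2 with 1 library left out. There 2289 of all genes were called as reported, 6029 with TPM, 223 relative to the chondrocyte matrix genes and 3391 with voom. The Sox5 call needed its low floor, since a mean FPKM of at least 1 removed Sox5 from the test.

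Libraries with the same number did not deviate together (correlations from -0.267 to 0.194), so the numbers were not taken as pairs. With a replicate block 1 gene was called in model against control, as Ihh was lost, 2 in SYD against model and 1 in SYD against control, and 0 genes of the whole table passed an adjusted p of 0.05 in each comparison.

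Of 474 alternative values of single log2 fold changes, 374 kept direction and call, 17 lost and 22 gained a call, and 61 reversed. The reversals relative to the chondrocyte matrix genes follow from a shift of all genes (median 3.13, -1.22 and 1.92 in the 3 comparisons), and the causes of the others were not tested. TPM reversed Runx3 (-2.79) in model against control, Sox9 (1.04), Sox6 (0.70) and Runx3 (1.42) in SYD against model, and Sox5 (-0.23), Runx3 (-1.38), Pth1r (-0.60) and Fgfr3 (-1.40) in SYD against control. Relative to the chondrocyte matrix genes, the model against control values became 2.79 for Sox9, 2.73 for Sox5, 1.93 for Sox6, 2.61 for Foxa2, 0.70 for Ihh, 3.30 for Pth1r, 2.16 for Ptch1, 2.71 for Gli1 and 2.37 for Fgfr3. The same scaling gave, in SYD against model, -0.35 for Sox5, -0.80 for Foxa2, -0.82 for Ihh, -0.46 for Pth1r, -0.56 for Ptch1 and -0.45 for Fgfr3, and in SYD against control 1.33 for Sox9, 0.46 for Sox6, 1.81 for Foxa2 and 1.61 for Ptch1. Quantile normalization gave 0.012 for Sox5 in model against control and 0.12 for Foxa2 in SYD against control. Reads outside mitochondrial genes gave 0.051 for Sox6 and 0.064 for Runx3 in SYD against model. Voom gave -0.42 for Runx3 in model against control, and 0.13 for Sox9, 0.094 for Sox6 and 0.38 for Runx3 in SYD against model.

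With 1 library left out, signs turned for Runx3 (-0.11 to 0.47 in model against control, -0.39 to 0.20 in SYD against model, -0.13 to 0.36 in SYD against control), Pth1r in model against control (-0.60 to 0.38), Sox9 (-0.59 to 0.39) and Sox6 (-0.23 to 0.24) in SYD against model, and Ptch1 (-0.88 to 0.17), Fgfr3 (-0.81 to 0.63) and Foxa2 (-0.75 to 0.22) in SYD against control. Foxa2 in SYD against model ran from 0 to 0.97. Scaling moved the median of all genes in model against control from -0.23 to -2.60 with TPM, 0.04 with quantile normalization and -0.38 outside mitochondrial genes, and in SYD against model from 0.22 to 1.22, -0.02 and 0.36. The ratios of Gli1 to Ptch1 (difference 0.465 to 0.683) and Ptch1 to Smo (-0.81 to -0.57) kept direction with each library left out. Depth limits the model group most, where 3 reads of Gli1 stand for up to 0.222 FPKM.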
